A study of Mus musculus with 24 samples.

Results

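The genes described here encode the proteins of the cytosolic ribosome in mouse brain cells that had been exposed to exosomes. Members were the rows named Rpl or Rps plus a digit, with Rplp0, Rplp1, Rplp2 and Rpsa. Kinase genes (Rps6k), named paralogs such as Rps27l and Rpl22l1, and pseudogene names ending in -ps and a digit were dropped. This left 83 of 20555 genes, of which 50 are named Rpl for the large (60S) subunit and 33 Rps for the small (40S) subunit. The pattern matched 100 rows, and 17 were dropped, 10 of them kinases. None of the 83 is among the 362 endothelial and 238 microglial genes in the authors' deposited table of differing genes.

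Slices of mouse brain received phosphate-buffered saline (PBS) or exosomes at 5 µg per slice over 2 days. Exosomes are small membrane vesicles that cells release, and these carried the green membrane dye PKH67. Endothelial cells, which line blood vessels, were sorted by CD31 in the absence of CD45, and microglia, the resident macrophages of the brain, by CD45 with low CD11b and low CD49d. Both came from the outer ring of the slices after myelin removal and exclusion of dead cells. Slices were given PBS, WT (wild-type) exosomes, or exosomes from either of 2 knockouts, KO1 and KO2. The labels used here name neither the donor cells, the deleted gene nor the mouse strain and age, and the series title concerns CEMIP, a hyaluronan-binding protein of tumour exosomes. Each library has a letter, A to C. The endothelial table held 10 libraries, with 3 letters for PBS and KO1, letters A and B for WT, and letters B and C for KO2. The microglial table held 11, with 3 letters per exosome group and letters A and B for PBS. The 3 other labelled samples (endothelial WT C and KO2 A, microglial PBS C) were not analysed here. The labels do not explain the letters or name separate animals, so the p-values reflect spread among these libraries that could be technical. PBS samples are labelled as sorted for exosome signal like the others, so their gate is unclear.

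A ribosome joins a small subunit, which reads the mRNA, to a large subunit, which forms peptide bonds and holds the exit tunnel of the new chain. Ribosomal proteins are made in about equal numbers, and their mRNAs are among the most abundant of most cells. Vertebrate ribosomal protein mRNAs belong to the TOP class: they begin with a C followed by a run of C and T bases, and their translation depends on the kinase complex mTORC1 and the binding protein Larp1. Most ribosomal protein genes also have many intronless copies in the genome, made by reverse transcription of the mRNA.

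Windows around annotated start sites are shown for 6 members described below. They were chosen to show 3 with a run of at least 8 C or T bases near the annotated start and 3 without. Each is 60 bases long, 40 before and 20 from the start site onward, from RefSeq on GRCm38.p6, 5′ to 3′ on the gene's own strand. Capitals mark the run found in the search described after the sequences, and other runs of C and T bases are not marked.
Rpl34, minus strand, chr3:130730318-130730377: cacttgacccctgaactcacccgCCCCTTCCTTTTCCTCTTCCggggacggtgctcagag
Rps15a, minus strand, chr7:118116128-118116187: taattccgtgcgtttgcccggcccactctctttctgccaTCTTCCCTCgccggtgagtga
Rpl19, plus strand, chr11:98026884-98026943: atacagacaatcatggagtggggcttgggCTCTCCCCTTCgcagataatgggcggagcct
Rpl26, plus strand, chr11:68901526-68901585: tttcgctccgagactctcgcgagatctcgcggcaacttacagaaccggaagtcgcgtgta
Rpl12, plus strand, chr2:32961672-32961731: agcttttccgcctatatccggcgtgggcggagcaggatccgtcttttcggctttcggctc
Rpl37, plus strand, chr15:5116573-5116632: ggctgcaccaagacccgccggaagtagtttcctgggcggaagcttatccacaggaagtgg
A run of at least 8 consecutive bases, each C or T on the gene's strand, was searched for from 10 bases before to 11 after the annotated start. Counting a gene when any of its entries matched, it was found in 23 of the 63 members with a promoter entry (36.5%) and in 2499 of all 27025 genes (9.25%). In the windows printed, the runs found for Rpl34, Rps15a and Rpl19 are 20, 9 and 11 bases long. The run of Rpl19 ends before the annotated start, and most of the run of Rpl34 lies before it. Rpl34 and Rpl19 each have another annotated start, not printed, whose searched stretch holds no run of at least 8. Rpl10a, Rpl6, Rpl4 and Rplp0 also had none in that stretch. Runs that lie mostly outside the stretch were not counted. A match describes these letters, and annotated starts can lie some bases from the used ones.

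The authors deposited values on a log2 scale after variance stabilisation, from which normalised counts could be recovered (scaled between libraries by the authors, though not to equal totals). Library totals were 25662166 to 28046010 normalised counts in the endothelial table, and 26963009 to 29381377 in the microglial table. Endothelial libraries carried 42620 to 56200 normalised counts of Pecam1, which encodes CD31, against 0 to 284 in microglia. Ptprc, which encodes CD45, was at 0 to 290 and 1529 to 3979. Microglial libraries held Tyrobp (11927 to 19243), while the microglial receptor genes P2ry12 (0 to 10.5), Gpr34 (0 to 14.8), Cx3cr1 (0 to 156) and Tmem119 (0 to 432) were at or near 0. Mouse Cemip was at 0 to 66.2 and 0 to 5.40 normalised counts, a level that checks no label since the slices received exosomes.

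Most ribosomal protein mRNAs were readily detected, and they ranked alike in both cell types. Of the 83 members, 79 had a mean of at least 50 normalised counts in each cell type and were tested. Their mean counts had a median of 4269 in endothelial cells (67.7 to 17116) and 4058 in microglia (57.8 to 20336), and 77 of the 79 exceeded 500 in both. Of all genes tested, 6589 of 10351 in endothelial cells and 6129 of 9740 in microglia had a mean of at least 500. The 4 others, Rpl10l, Rpl32l, Rps23rg1 and Rps27rt, carry names of retrogenes or copies. Rps27rt was at the floor in every library of both cell types. Rpl10l, a retrogene copy of Rpl10, was at 20.7 in endothelial KO1 A and at 0 in the other 9 endothelial libraries. Rps23rg1 stayed at 3.65 to 18.0 in endothelial cells, and Rpl32l was detected in 1 endothelial library, PBS B, at 4.10.

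Levels between genes were compared per kilobase of coding sequence in the PBS libraries. Rpl41, which encodes the shortest ribosomal protein at 75 coding bases, was highest, with 131503 ± 12173 (SD, n = 3) in endothelial cells and 163962 ± 9474 (SD, n = 2) in microglia. Dividing by such a short frame enlarges its lead. Per full transcript length it stood at 16946 and 21129, against 16498 and 17432 for Rpl13. In endothelial cells high levels per coding kilobase were also found for Rps29 (27189.5 ± 3780), Rps25 (20486 ± 2689), Rpl13 (20329 ± 818) and Rpl37a (18863 ± 461), each SD with n = 3. Rps25, Rpl13 and Rpl37a overlap within their spreads. In microglia Rps29 (28904 ± 358), Rps25 (26928.5 ± 2622), Rpl35 (26232 ± 3480) and Rpl36al (24981 ± 1920) were high (SD, n = 2), and the last 3 overlap.

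At the low end stood Rpl29, Rpl30, Rpl6, Rps6, Rpl15 and Rps4x in both cell types. Rpl29, a large-subunit protein that also binds heparin, was lowest of the tested members, at 144 ± 30.1 per coding kilobase in endothelial cells (SD, n = 3) and 102 ± 103 in microglia (SD, n = 2). The next lowest were Rpl30 at 1038 ± 274 and Rpl6 at 1148 ± 141 in endothelial cells (SD, n = 3), which overlap. In microglia Rpl6 (1382 ± 249) and Rpl30 (1620 ± 271) overlapped as well (SD, n = 2). Rps6, the small-subunit protein that S6 kinase phosphorylates, stood at 1762 ± 178 (SD, n = 3) and 1942 ± 269 (SD, n = 2). Across 78 members the PBS levels of both cell types had a Spearman rho of 0.95, a description over genes that share libraries and annotation.

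**Figure D1:**
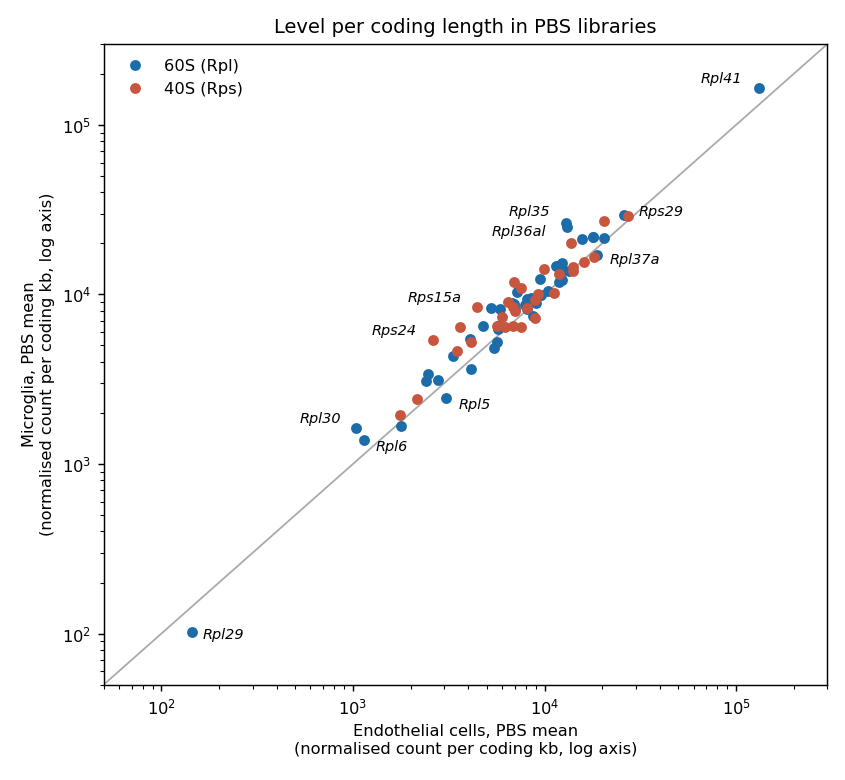
Each point is a ribosomal protein gene, placed by its mean PBS level in endothelial cells (x, 3 libraries) and microglia (y, 2 libraries), in normalised counts per kilobase of coding sequence on log axes; the line marks equal values. Of 78 points 60 lie above the line and 18 below it, with Rpl41 at the upper end and Rpl29 at the lower. The tables were normalised separately, so the side of the line does not compare levels between the cell types.

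These genes share sequence with their copies, which bears on how reads are assigned. Of the 81 members with a transcript in GENCODE M21, 78 had at least 1 other gene with a match of 95% identity over 90% of the coding sequence. The median was 5 copies, and Rpl21 had the most with 56. Rpl8 and Rps3 were among the 3 that had none. Of the 578 genes among the copies, 551 (95.3%) are processed pseudogenes, and 12 have a row of their own in the deposited tables, 6 of them members. Level per coding kilobase and number of copies had a Spearman rho of -0.20 in endothelial cells and -0.19 in microglia across 78 members. Rpl29 has 27 copies.

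As a share of all normalised counts, the members together made up 1.25%, 1.45% and 1.21% in the endothelial PBS libraries, in the order of their letters. The WT libraries held 1.51% and 1.61%. The knockout libraries held 1.46%, 1.52% and 1.34% (KO1) and 1.42% and 1.56% (KO2, letters B and C). Both WT libraries lay above the 3 PBS libraries, and the knockout groups overlapped with both. The means were 1.31% ± 0.129 in PBS (SD, n = 3), 1.56% ± 0.0702 in WT (SD, n = 2), 1.44% ± 0.0920 in KO1 (SD, n = 3) and 1.49% ± 0.102 in KO2 (SD, n = 2). In bulk samples fewer cells of a type and less RNA per cell cannot be told apart.

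Microglia gave a different picture. PBS held 1.503% (A) and 1.43% (B). By letter, WT held 1.33%, 1.23% and 1.56%, KO1 1.37%, 1.28% and 1.57%, and KO2 1.24%, 1.39% and 1.63%. In each exosome group letter C was highest, between 1.56% and 1.63%, while the 6 exosome libraries lettered A or B lay at 1.23% to 1.39%, below both PBS libraries. No microglial PBS library lettered C was analysed, so the C libraries have no PBS library of their letter to stand beside. The sum of 10 border macrophage markers was 3495 to 4522 in the 3 C libraries against 8265 to 16229 in the 6 A and B exosome libraries and 6494 and 9637 in PBS. Of these markers 4 were at 100 or more in the C libraries, and 5 to 6 in the other microglial libraries. Endothelial libraries, sorted in the absence of CD45, had sums of 8189 to 19426, so the sum alone does not mark border macrophages. The sum of 16 immediate early and dissociation genes was 138271 to 152593 in the C libraries, 165340 to 221950 in the A and B exosome libraries and 183727 and 238762 in PBS. The part of either microglial sum in the member shares was not tested.

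The subunits kept a steady ratio. Counts of 60S members were 1.60 to 1.83 times those of 40S members over the endothelial libraries and 1.63 to 1.77 times over the microglial ones. Within the sum of members, 74 of 79 genes held shares within 1.5 times of each other in the 2 cell types. Rpl35 took 2.33% ± 0.175 (SD, n = 11) of the member sum in microglia and 1.45% ± 0.212 (SD, n = 10) in endothelial cells, and every microglial library lay above every endothelial one. Rpl36a took 0.215% ± 0.0494 (SD, n = 11) and 0.450% ± 0.0831 (SD, n = 10), with the ranges apart in the other direction. The tables were normalised separately, so these are levels side by side and were not tested.

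**Figure D2:**
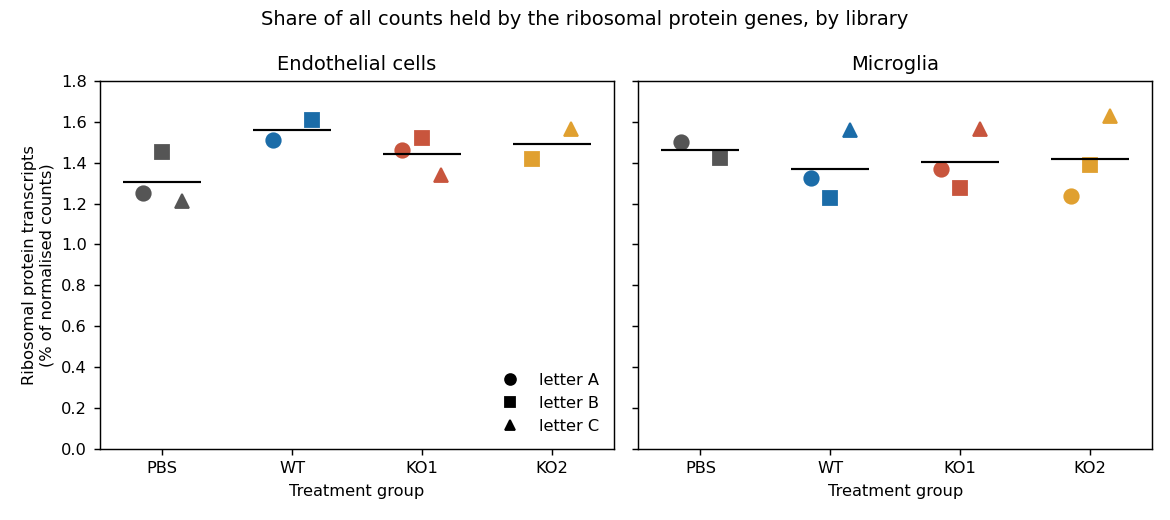
Share of all normalised counts held by the members (y, percent, axis from 0) for each library by treatment group; marker shape gives the letter and the line the group mean. Endothelial WT libraries (1.51% and 1.61%) lie above PBS, and in microglia the C libraries (1.56% to 1.63%) lie above the exosome libraries lettered A and B.

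The first comparison asks what exosomes of unmodified donor cells change in endothelial cells. Ribosomal protein genes were mostly higher with WT exosomes: 69 of 79 had a positive difference, with a median of 0.06 on the deposited log2 scale, against 46.5% of all 10351 genes and a median of -0.01. The endothelial scale compresses differences. As log2 of counts plus 10, the median of members was 0.21 and that of all genes -0.13. No member passed the threshold of 0.05 in limma, a linear model fitted to all genes with Benjamini-Hochberg adjustment. 1 of the 10351 genes did (0.00966%), Map4k2, and 4 members and 1011 genes had an unadjusted p under 0.05. The 95% intervals of the members reached a median of 0.19 to either side of the estimate, so most differences of this size could not be resolved at this number of libraries.

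Read by separation of the libraries, 31 of 79 members (39.2%) had both WT libraries above all 3 PBS libraries, where 15.7% of all genes did. No member had both below, where 18.7% of all genes did. Leaving out each of the 5 libraries in turn gave 31 to 53 members above, beside 18.3% to 36.9% of all genes, and 0 to 9 below, beside 22.1% to 41.4%. The 53 came without WT A, with 1 WT library left.

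Rpl36al, a paralog of the 60S protein gene Rpl36a (chr12:69182734-69184067 on GRCm38), had the smallest p. Its normalised counts, here and below in the order of the letters, were 3867, 5216 and 3463 in PBS and 8820 and 6584 in WT. They were 7051, 6314 and 4598 in KO1 and 4718 and 6356 in KO2. WT lay above PBS in every library, and the knockouts spread over both ranges. The WT minus PBS difference was 0.31 ± 0.102 (SE) on the deposited scale, or 0.89 as log2 of counts plus 10, with an adjusted p of 0.387 in limma.

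Rpl10a, which sits by the stalk that releases spent tRNA (chr17:28328471-28331033), was at 1666, 1677 and 1466 in PBS and at 3040 and 2932 in WT. The knockout libraries held 2128, 2183 and 1905 (KO1) and 2490 and 4185 (KO2), so that all 7 exosome libraries exceeded all 3 PBS libraries. Its difference was 0.21 ± 0.0833 (SE; 0.90 in counts), with an adjusted p of 0.468 in limma.

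Rpl37 (chr15:5116613-5119140) encodes a zinc-binding 60S protein. It stood at 3549, 3554 and 3152 in PBS, 4699 and 6525 in WT, 4832, 4213 and 3778 in KO1 and 5013 and 4644 in KO2, again with no overlap between PBS and exosome libraries. Its difference, WT minus PBS, was 0.22 ± 0.0832 (SE; 0.70 in counts) with an adjusted p of 0.430 in limma.

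The stalk of the large subunit recruits elongation factors and is built of Rplp0, Rplp1 and Rplp2 on a base that includes Rpl12. All 4 genes had positive WT minus PBS differences in endothelial cells, with a median of 0.10. Rpl12 (chr2:32961712-32964045) was at 2355, 3080 and 2400 in PBS, 5491 and 3636 in WT, 3766, 3306 and 3392 in KO1 and 4025 and 3766 in KO2. Every exosome library exceeded every PBS library. Its difference was 0.22 ± 0.0845 (SE; 0.78 in counts), adjusted p of 0.430 in limma. Rplp2 was at 3549, 3281 and 3002 in PBS and 4595 and 4308 in WT, and in KO1 (3508, 3845, 3691) and KO2 (2664, 2966) it overlapped with PBS. Rplp1 (2300 to 3468 in PBS, 3301 and 3169 in WT) and Rplp0 (13949 to 15919 in PBS, 14537 and 17079 in WT) overlapped between the groups.

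Other 60S members with both WT libraries above PBS included Rpl6 (0.16), Rpl31 (0.17) and Rpl19 (0.20), with adjusted p from 0.513 to 0.547 in limma. Rpl31 and Rpl19 line the tunnel exit. Of 11 members at the exit tunnel, 10 were higher with WT exosomes (median 0.12) and 1 lower. Among 40S members the smallest p belonged to Rps29 (0.17) and Rps15a (0.16). Rps29, a small zinc-binding protein of the 40S head, stood at 4954, 4914 and 3835 in PBS and at 6375 and 6482 in WT. The medians over the 48 tested Rpl genes and the 31 Rps genes were 0.08 and 0.06.

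The 10 members below PBS were close to it. Rpl34 differed by -0.09, Rps14 by -0.05 and Rps4x, the X-linked gene of the 40S protein S4, by -0.04, and none of the 10 had groups apart. The others, Rpl37rt, Rpl5, Rps24, Rps3, Rpl9, Rpl22 and Rpl8, lay between -0.03 and -0.01. Rpl5 and Rpl11, which with 5S RNA form a particle that can also bind Mdm2, differed by -0.03 and 0.05. Rpl5 was at 2629, 2870 and 2650 in PBS and 2131 and 2942 in WT, which overlap.

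Summed levels of other marker lists differed between these groups. Endothelial markers summed to 308377 to 335538 in PBS and 296743 and 268672 in WT, which do not overlap. The sum of 14 choroid plexus and ependyma markers was 103 to 4769 normalised counts in PBS, with 0 to 3 of the 14 at 100 or more, and 173681 and 190786 in WT, with 10 of 14 at 100 or more. In the knockout libraries it was 170814, 286457 and 2956 (KO1) and 263541 and 17538 (KO2 B and C). The 2 exosome libraries with the fewest such transcripts, KO1 C and KO2 C, held member shares of 1.34% and 1.56%. With marker genes taken out of the total, the member share was 1.23% to 1.47% in PBS and 1.54% and 1.64% in WT. Fibroblast markers summed to 575 to 1486 in PBS and 3232 and 6367 in WT, microglial markers to 780 to 1063 and 1188 and 4207, and astrocyte markers to 19084 to 41628 and 16670 and 9350. These sums rest on few genes. At 100 or more were 2 of 11 fibroblast markers in PBS and 2 and 4 in WT. For microglial markers it was 1 of 14 in PBS and 1 and 6 in WT. For astrocyte markers it was 2 to 4 of 12 in PBS and 2 and 5 in WT. WT B thus had the lower astrocyte sum with more of the genes. Immediate early and dissociation genes summed to 207904 to 491503 in PBS and 250734 and 174222 in WT. The part of these transcripts in the result was not tested. Genes above the floor numbered 11305 to 11952 in PBS and 9235 and 10607 in WT.

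**Figure D3:**
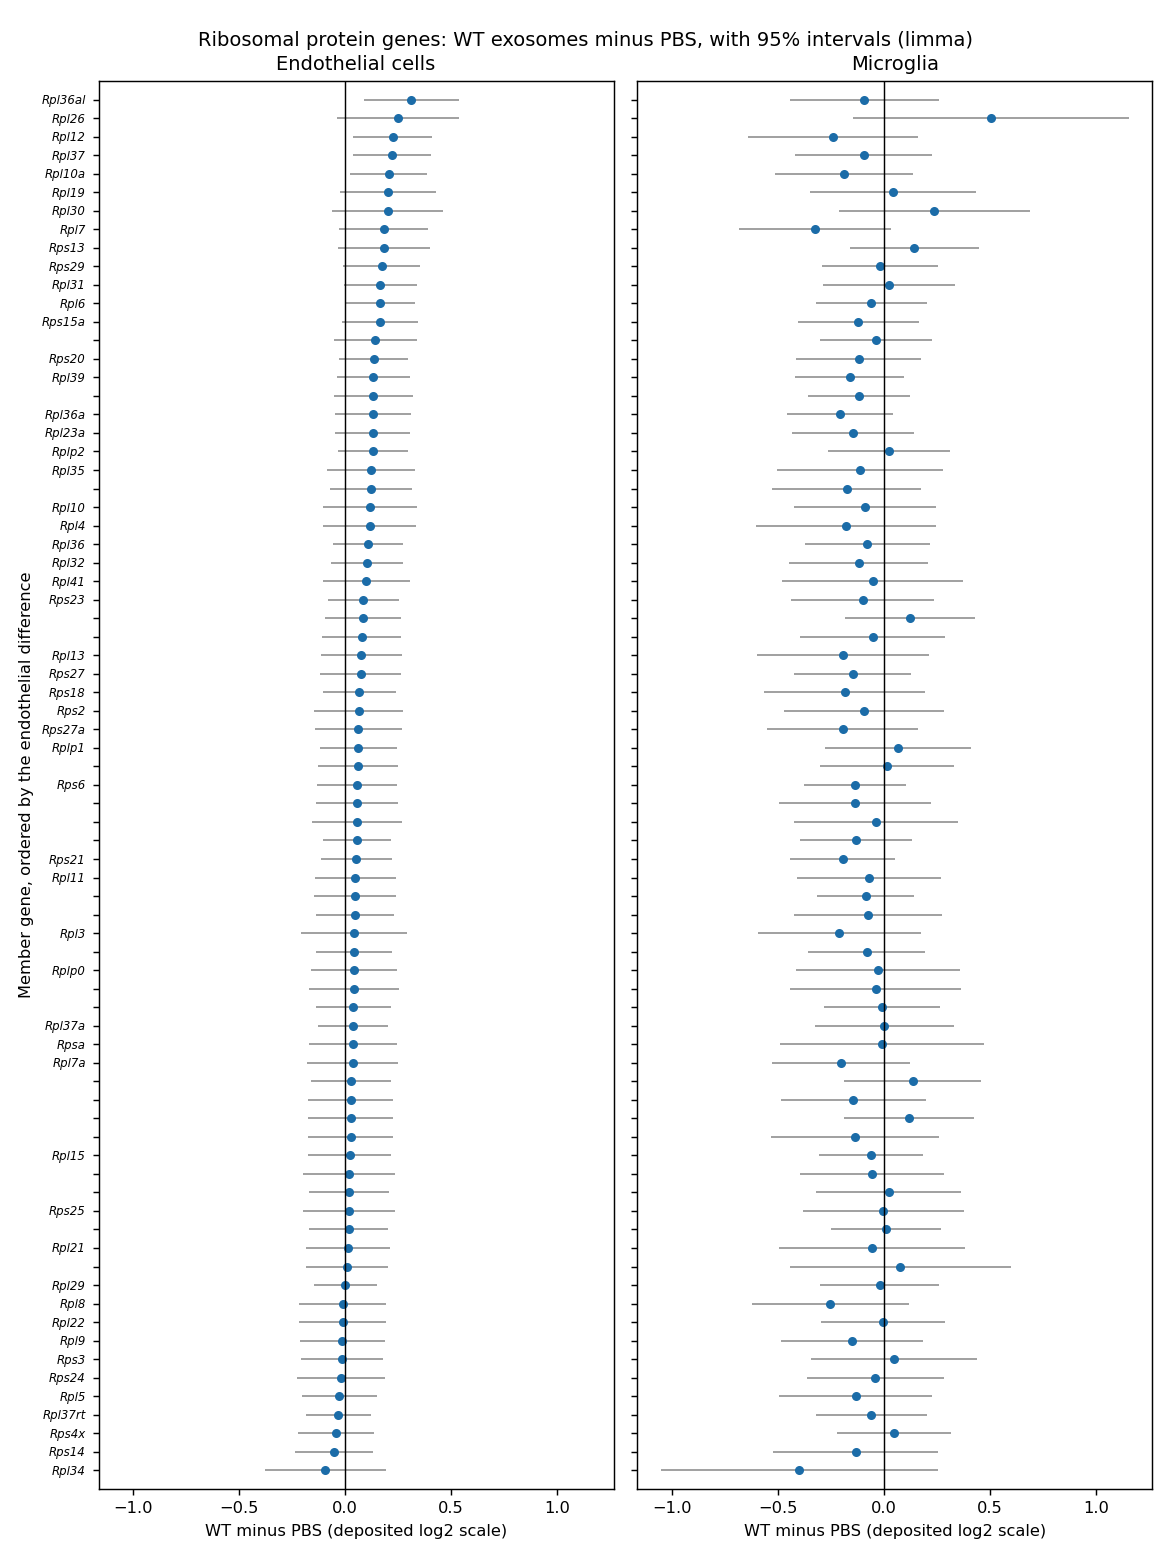
WT minus PBS difference of the tested members (4 are not drawn, and genes named in the text are labelled) on the deposited log2 scale (x), with 95% intervals from limma, in endothelial cells (left) and microglia (right); genes are ordered by the endothelial value and the vertical line marks 0. Endothelial points lean above 0 (69 of all 79 tested) and microglial points below 0 (61 of all 79), and no member passed the threshold in either.

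The same comparison in microglia leaned the other way. With WT exosomes 18 members were higher and 61 lower, with a median of -0.08 against 0.00 over all 9740 genes, of which 49.6% were higher. No member and none of the genes passed the threshold in limma (0.0%), and 0 members and 510 genes had an unadjusted p under 0.05. The call over all genes depends on the letters. With the letter as replicate block 25 genes and 0 members passed, 11 members were higher and the member median was -0.13. 11 members (13.9%) had all 3 WT libraries below both PBS libraries, where 9.92% of all genes did, and 1 member, Rps13, had all above, where 9.18% did. Both shares of members lie near or below the background. Of the 16 immediate early and dissociation genes 3 were higher and 13 lower (median -0.13), none past the threshold, and their part in the result was not tested. Without WT C the member median was -0.13 and 39 members (49.4%) lay below PBS, beside 17.2% of all genes. Without PBS A the median was -0.05, and without WT B it was -0.05.

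Rpl7, a 60S protein gene (chr1:16101295-16104433), had the smallest p. Its counts were 8906 and 6610 in PBS against 5582, 6210 and 5797 in WT. KO1 held 6309, 6304 and 7445, and KO2 held 6009, 8220 and 7205. WT lay below PBS, and the knockouts overlapped with both. The difference was -0.32 ± 0.164 (SE), adjusted p of 0.941 in limma. In endothelial cells the same gene had been at 7058, 7472 and 6228 in PBS and 9380 and 9433 in WT.

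Rpl36a was at 1373 and 949 in PBS and 774, 661 and 758 in WT, a difference of -0.21. Rps21 followed with -0.19, Rpl8 with -0.25, Rpl39 with -0.16 and Rpl7a with -0.20. Among the 18 higher members were Rpl26 (0.51) and Rpl30 (0.24), whose values by library follow below, and Rps13 (0.14), at 3608 and 3633 in PBS and 4498, 3852 and 4236 in WT. For Rpl36a each WT library was below each PBS library, and for Rps13 each was above. Of the stalk genes, Rpl12 differed by -0.24 and Rplp1 by 0.07, with 2 of 4 in each direction. Rpl5 and Rpl11 differed by -0.13 and -0.07.

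The second comparison asks whether exosomes of the knockouts differ from WT exosomes. In endothelial cells the mean of both knockouts stood below WT for 53 of 79 members and above for 26, with a median of -0.03 against 0.00 over all genes, of which 51.7% were higher. In counts plus 10 the median was -0.11 for members and 0.01 for all genes. No member passed the threshold in limma and 1 gene did (0.00966%), Zfp46, while 1 member and 915 genes had an unadjusted p under 0.05. 8 members had all 5 knockout libraries below both WT libraries, namely Rpl31, Rpl32, Rpl6, Rpl7, Rplp2, Rps15a, Rps18 and Rps20, beside 4.7% of all genes. 1 member, Rps4x, had all 5 above, beside 4.52% of all genes.

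Rps15a, a 40S protein gene (chr7:118104374-118116147), was the member of smallest p. Its counts were 3459 and 2264 in WT, 1626, 1881 and 1495 in KO1 and 1871 and 1462 in KO2, beside 1691, 1869 and 1613 in PBS. The knockout libraries lay below WT and overlapped with PBS. The difference was -0.17 ± 0.0747 (SE; -0.75 in counts), adjusted p of 0.541 in limma. Rpl7 differed by -0.18, Rplp2 by -0.14, and Rps20 and Rps18 by -0.13 each, with adjusted p from 0.575 to 0.633 in limma. The 4 stalk genes were all lower, with a median of -0.07. Rps4x was at 1716 and 1254 in WT, 2910, 2318 and 1800 in KO1 and 2139 and 2561 in KO2, a difference of 0.14 with an adjusted p of 0.628 in limma. Both this comparison and WT minus PBS rest on the same 2 WT libraries. Leaving out WT B moved the member median to -0.02, and leaving out KO2 C moved it to -0.05.

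In microglia 51 members were higher with knockout than with WT exosomes and 28 lower, median 0.02 (all genes 0.00, 48.9% higher). No member and none of the 9740 genes passed the threshold in limma (0.0%), while 1 member and 313 genes had an unadjusted p under 0.05. That member was Rpl39, a very short protein of the tunnel wall. It was at 902, 1060 and 1024 in WT, 1676, 1123 and 1525 in KO1 and 1145, 1539 and 1751 in KO2, so that every knockout library exceeded every WT library. Its difference was 0.20 ± 0.0909 (SE), adjusted p of 1.00 in limma. Next came Rps27a (0.23), Rpl6 (0.14) and Rpl7 (0.19), and among the lower members Rplp1 (-0.15) and Rplp2 (-0.12). Rpl39 was the 1 member with groups apart in that direction, beside 0.862% of all genes, and 0 members were apart in the other, beside 0.883%. The median turned to -0.003 without WT A or WT B and to -0.005 without KO2 C.

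Knockout exosomes were also compared with PBS, using the same PBS libraries as the first comparison. In endothelial cells 61 members were higher and 18 lower, median 0.05 (all genes -0.01, 47.5% higher), or 0.15 in counts plus 10 (all genes -0.14). No member and none of the genes passed in limma (0.0%), while 4 members and 559 genes had an unadjusted p under 0.05. Among the 4 were Rpl26 (0.31), Rpl10a (0.16) and Rpl23a (0.15). 9 members had all 5 knockout libraries above all 3 PBS libraries, among them Rpl10a, Rpl12, Rpl13, Rpl23a, Rpl36, Rpl37, Rpl6 and Rps23, beside 2.22% of all genes. 1 member had all below, Rpl5 (2.85% of all genes), which was at 1950, 2051 and 2561 in KO1 and 2255 and 1571 in KO2. Rpl23a, a docking protein at the tunnel exit, was at 3147, 3671 and 3326 in PBS and at 4333, 4419 and 4962 in KO1 and 4560 and 5453 in KO2. Its difference was 0.15 ± 0.0650 (SE; 0.50 in counts), adjusted p of 0.866 in limma. Without PBS C the median over members was 0.03, and without all C libraries it was 0.02, with 47 members higher.

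In microglia 23 members were higher with knockout exosomes than in PBS and 56 lower, median -0.05 (all genes 0.00, 49.6% higher). No member and none of the genes passed in limma (0.0%), and 1 member and 522 genes had an unadjusted p under 0.05. With the letter as replicate block 16 genes and 0 members passed, 13 members were higher and the member median was -0.10. 5 members had all 6 knockout libraries below both PBS libraries, namely Rpl15, Rpl36a, Rpl7a, Rpl8 and Rps2, beside 3.8% of all genes, and 0 had all above, beside 3.71%. Rpl8, whose product lies near the peptidyl transferase centre, was at 5990 and 7327 in PBS, 4726, 5143 and 5622 in KO1 and 4563, 4429 and 5626 in KO2. All 6 knockout libraries were below both PBS libraries. Its difference was -0.32 ± 0.151 (SE), adjusted p of 0.923 in limma. Rpl7a (-0.26), Rpl36a (-0.17), Rpl15 (-0.15) and Rpl11 (-0.19) came next. The median was -0.02 without KO2 A, -0.09 without KO2 C and -0.10, with 12 members higher, when all C libraries were left out. Of the 16 immediate early and dissociation genes 1 was higher and 15 lower (median -0.18), none past the threshold, and their part in the result was not tested.

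The last comparison sets the knockouts side by side. KO1 minus KO2 was positive for 37 of 79 members in endothelial cells (median -0.01, all genes 0.00, 49.0% higher) and for 44 in microglia (median 0.01, all genes -0.01, 47.9% higher). No member passed in either cell type and none of the genes did in limma (0.0% in each), while 0 members had an unadjusted p under 0.05 beside 635 endothelial and 324 microglial genes. Rpl4, which lines the tunnel, had the smallest p in endothelial cells, with 11761, 16321 and 15581 in KO1 and 20375 and 17753 in KO2. One KO1 library, A, was lowest of all, and both KO2 libraries were above all 3 KO1 libraries. Its difference was -0.21 ± 0.0996 (SE), adjusted p of 0.808 in limma. In microglia Rpl34 (-0.58) and Rpl3 (-0.28) had the smallest p on the KO2 side, each with an adjusted p of 1.00 in limma. The sum of Rpl34 and a near-identical copy described below was 4488 ± 1007 in microglial KO1 and 4167 ± 638 in KO2 (SD, n = 3 each), which overlap. In microglia the count of 44 was 22 without KO2 A and 25 without KO1 C, so the lean between the knockouts rests on single libraries.

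Beside these small differences, 3 members differed widely between single libraries, and libraries of the same label took like values in both cell types. They were chosen after their values were seen. Rpl26, a 60S protein at the tunnel exit that also binds p53 mRNA (chr11:68901566-68904534), stood at 246 in endothelial PBS A and 204 in microglial PBS A. In the other 9 endothelial libraries it was at 1671 to 4169, and in the other 10 microglial libraries at 2457 to 5162. PBS A alone was low in each cell type. Rpl26 was the member of smallest p for knockout minus PBS in both, with 0.31 ± 0.106 (SE; 1.66 in counts) and an adjusted p of 0.749 in endothelial cells, and 0.66 ± 0.266 (SE; 1.97 in counts) and an adjusted p of 0.922 in microglia, both in limma. Without PBS A the microglial difference was -0.02.

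Rpl30, a 60S protein that binds kink-turn RNA (chr15:34440505-34443276), was high where Rpl26 was not unusual. WT B held 2284 in endothelial cells and 2094 in microglia, and KO1 B held 1316 and 1954. The other 8 endothelial libraries were at 268 to 604 and the other 9 microglial libraries at 453 to 1006. The same 2 labels were thus highest in both cell types. Libraries A and C of the same groups were lower where analysed, and no endothelial WT C was. KO1 A came next, at 604 and 1006.

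Rpl34, a 60S protein gene (chr3:130726827-130730398), had 4610, 2299 and 2237 in endothelial PBS, 2192 and 2368 in WT, 2423, 2440 and 599 in KO1, and 2106 and 3947 in KO2. In microglia it had 3835 and 1376 in PBS, 1838, 1988 and 512 in WT, 1632, 2223 and 601 in KO1, and 3733, 1820 and 4027 in KO2. PBS A and KO2 C were high and KO1 C low in both cell types, and in microglia KO2 A was also high and WT C low. A near-identical gene, Rpl34-ps1 (chr6:71124589-71125001), has a row of its own that the naming rule drops. GENCODE M21 calls it a processed pseudogene and RefSeq a protein-coding gene. It mirrored Rpl34, with 31.2, 2097 and 1855 in endothelial PBS, 2043 and 2407 in WT, 2349, 2423 and 4022 in KO1, and 2331 and 257 in KO2. In microglia it had 49.4 and 2057 in PBS, 1657, 1372 and 4910 in WT, 1901, 2167 and 4940 in KO1, and 56.8, 1988 and 877 in KO2. Where Rpl34 was high its copy was low, and the reverse.

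The sum of both was far steadier than Rpl34 alone. Across the endothelial libraries it ranged from 4092 to 4863, a 1.19-fold range against 7.70-fold for Rpl34, and across the microglial libraries from 3359 to 5541, 1.65-fold against 7.86-fold. The group means of the sum were 4376 ± 275 (SD, n = 3) in endothelial PBS, 4505 ± 381 (SD, n = 2) in WT, 4752 ± 122 (SD, n = 3) in KO1 and 4321 ± 165 (SD, n = 2) in KO2. For microglia they were 3659 ± 319 in PBS (SD, n = 2), and 4092 ± 1154 in WT, 4488 ± 1007 in KO1 and 4167 ± 638 in KO2 (SD, n = 3 each). Rpl34 took 99.3% and 98.7% of the sum in PBS A of endothelial cells and microglia, 98.5% in microglial KO2 A, and 93.9% and 82.1% in KO2 C. It took 12.96% and 10.8% in KO1 C and 9.44% in microglial WT C. In the other 13 libraries it took 40.1% to 59.2%. The values thus fell into a high, a middle and a low set, and the treatment groups were spread over them.

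The coding sequences of Rpl34 and the copy are 351 bases long and 99.4% identical, with 2 differences, T132C and C318G, where the base of Rpl34 stands first, positions count from the first base of the start codon, and the base of the copy stands last. The 30 bases around each difference are shown 5′ to 3′ from GENCODE M21 transcripts on GRCm38, with the differing base in capitals, because they are the sequence by which reads of the coding part can be told apart.
Rpl34, exon 3, minus strand, chr3:130729070-130729099: gaaagcacctaaatcTgcatgtggcgtgtg
Rpl34-ps1, plus strand, chr6:71124726-71124755: gaaagcacctaaatcCgcatgtggcgtgtg
Rpl34, exon 5, minus strand, chr3:130726897-130726926: aatcgttgtgaaagtCttgaaggcacaagc
Rpl34-ps1, plus strand, chr6:71124912-71124941: aatcgttgtgaaagtGttgaaggcacaagc
Reads of the coding part that cover neither position fit both genes, and how they were shared out was set by the authors' quantification. The untranslated parts were not compared. The values of Rpl34 and its copy one by one carry that limit, and their sum varied less between libraries. The part of read assignment in the split between them was not tested. Rpl26 and Rpl30 have 6 and 12 copies by the measure above. The part of read assignment in their values was not tested either.

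**Figure D4:**
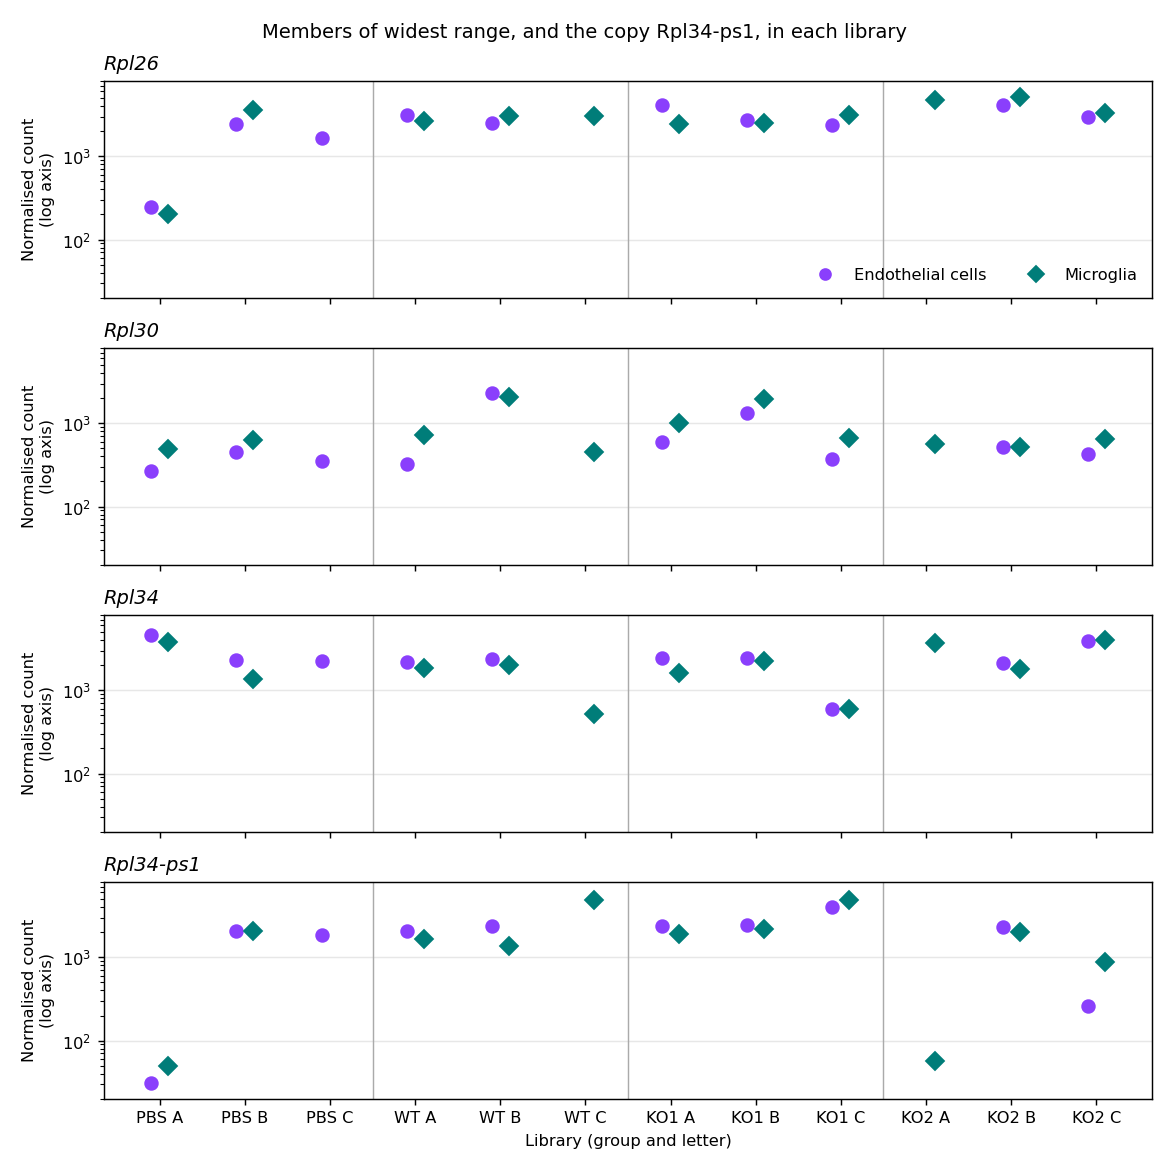
Normalised counts (y, log axis) of Rpl26, Rpl30, Rpl34 and the copy Rpl34-ps1 in every library (x, group and letter), circles for endothelial cells and diamonds for microglia. Libraries of the same label take like values in both cell types, least so for Rpl34-ps1 in KO2 C (257 and 877), with Rpl26 low in PBS A (246 and 204), Rpl30 high in WT B and KO1 B, and Rpl34 and its copy opposite to each other.

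These 3 genes set the likeness between libraries of the same label. Over 79 members, the deviation of each gene from its median had a Pearson r of 0.81 between endothelial and microglial PBS A, and of 0.53 to 0.54 for WT B, KO1 B and KO1 C. The other 5 of the 9 shared labels gave -0.06 to 0.23. Without the 3 genes the 9 values were -0.05 to 0.19 over 76 members, and over 8949 genes they were -0.02 to 0.08. Library pairs of unlike label gave -0.38 to 0.37 over the members. The points share annotation and quantification, and the labels do not say whether libraries of both cell types with the same group and letter came from the same slices.

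Such genes were a minority elsewhere too. Of 5283 genes with a mean of at least 500 in both cell types, 799 ranged over more than 4-fold in each, and 27 of these (3.38%) had an r of 0.9 or more between the cell types over the 9 labels. Among 77 members with such means, the 3 named ones ranged that widely, and their r was 0.95 for Rpl26, 0.92 for Rpl30 and 0.95 for Rpl34. The median r was 0.03 over the other members and 0.02 over all genes.

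Apart from these, the members varied little. Their median SD over libraries, as log2 of counts plus 10, was 0.24 in endothelial cells and 0.21 in microglia, against 0.58 and 0.43 for genes with a mean of at least 500. A range of more than 4-fold was found in 3 of 77 members (3.90%) with such a mean in each cell type, and in 49.5% and 27.0% of genes. The steadiest in endothelial cells was Rpl37a, a zinc-binding 60S protein, at 4727 to 5871.

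**Figure D5:**
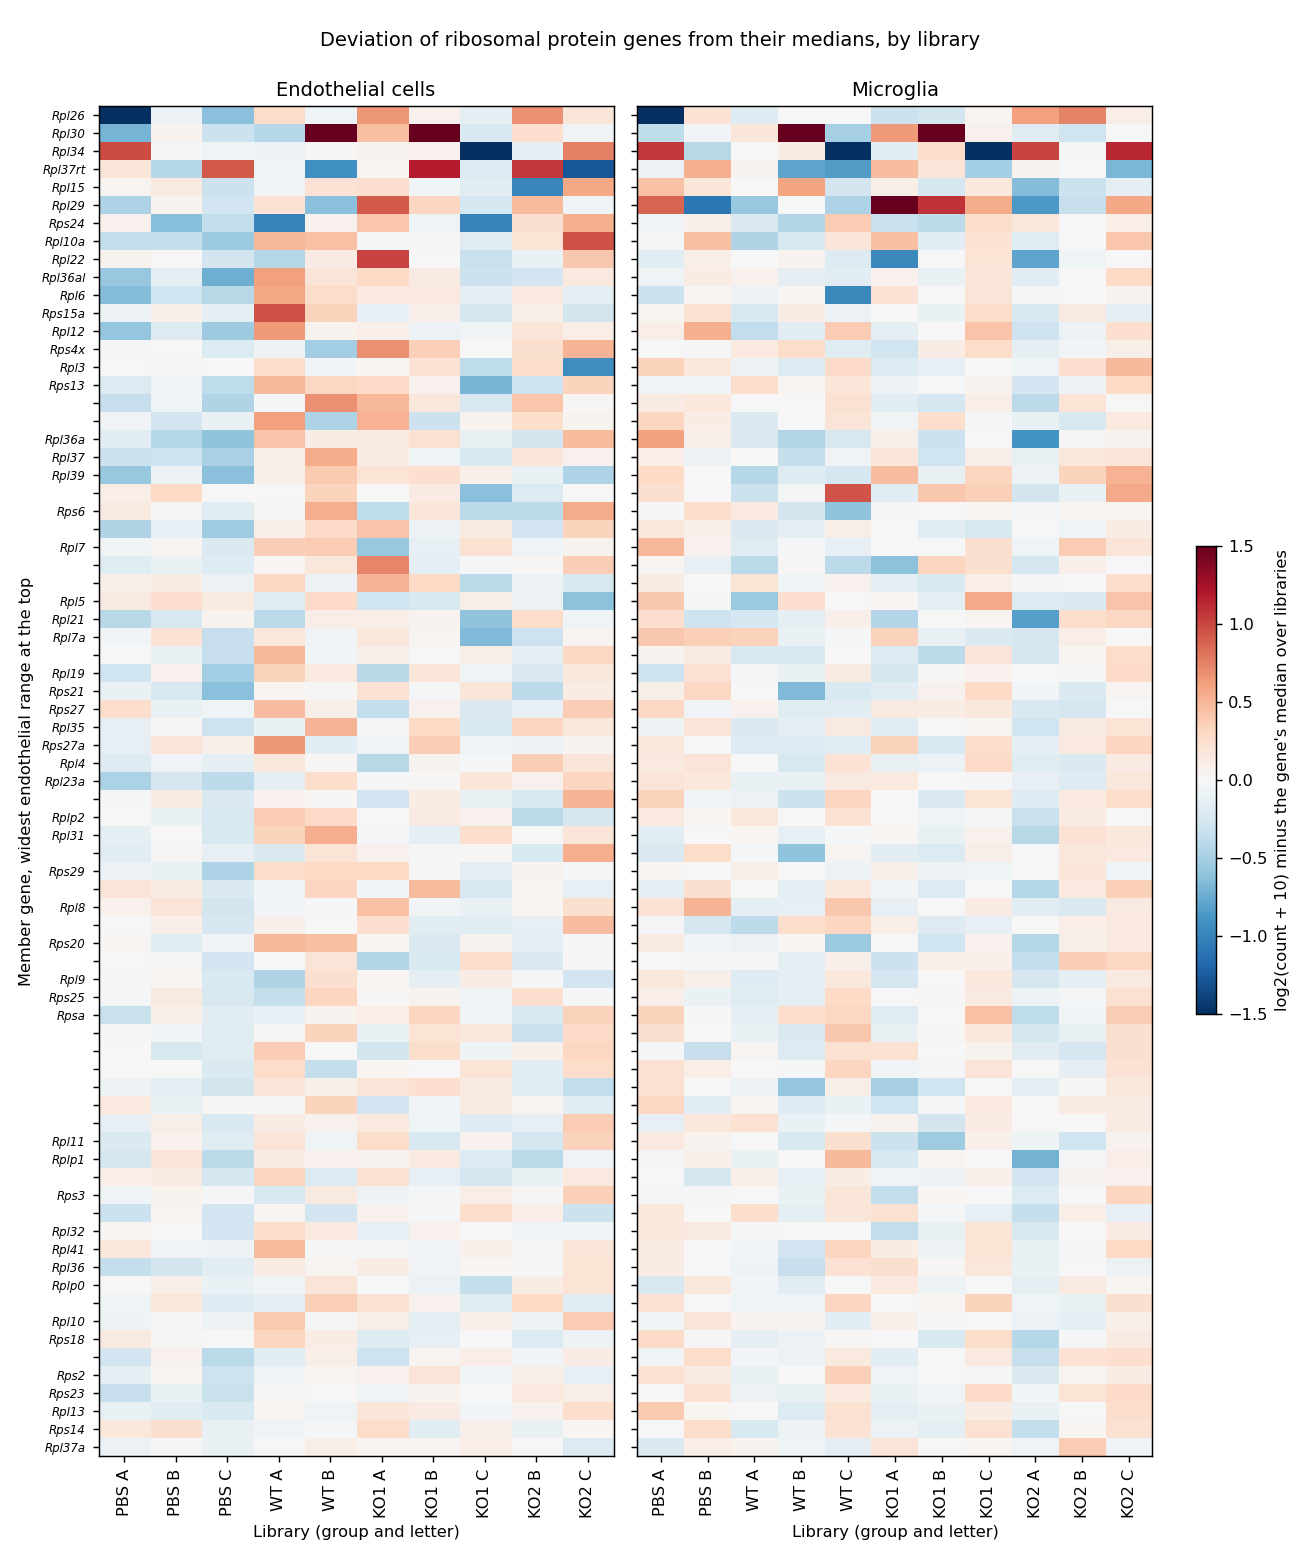
Deviation of the tested members (4 are not drawn; rows, genes named in the text labelled, widest endothelial range at the top) from their medians over libraries, as log2 of normalised counts plus 10, in each endothelial (left) and microglial (right) library; red is above and blue below the median, and the colour scale ends at 1.5 either way. Rpl26, Rpl30 and Rpl34 show the same dark cells in libraries of the same label, while most other rows stay pale.

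Genes left out by the rule were looked at in the same way. Rps27l, a p53-induced paralog of Rps27, ranged from 4744 to 6802 over endothelial libraries and from 4077 to 5807 over microglial ones, as high as many members. Rpl7l1, a paralog of Rpl7 in the nucleolus, was at 3550 to 7848 and 2929 to 6167. Rpl22l1, a paralog of Rpl22, was at 352 to 1266 and 198 to 615, Rpl39l, known from testis, at 0 to 165 and 0 to 260, and the muscle paralog Rpl3l was listed at 0 throughout. None of those tested passed the threshold in WT minus PBS or knockout minus WT.

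Other genes of protein synthesis were counted in lists, with no gene past the threshold in either of these comparisons. Of 24 other TOP genes, among them elongation factors, 18 were higher and 6 lower in endothelial cells with WT exosomes (median 0.07), and 9 and 15 in microglia (median -0.07). Pabpc1, the poly(A)-binding protein, differed by 0.45 in endothelial cells with an adjusted p of 0.218 in limma, and Eif4a2, an RNA helicase of initiation, by 0.27 with 0.423. With knockout instead of WT exosomes 7 of the 24 were higher and 17 lower in endothelial cells, Pabpc1 at -0.25. In microglia Eif3l was at -0.59 for WT minus PBS, with an adjusted p of 0.911 in limma.

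Lists for initiation, ribosome assembly and their control were counted for WT minus PBS, and for knockout minus PBS where given. Of 26 initiation factors 13 were higher and 13 lower in endothelial cells, and 15 and 11 in microglia. For knockout minus PBS 17 were higher and 9 lower in endothelial cells. Of 42 biogenesis genes 23 were higher and 19 lower in endothelial cells, and 20 and 22 in microglia, with 24 and 18 for knockout minus PBS in each. Among them Nop56, of the snoRNA particles, differed by -0.54 in microglia, with an adjusted p of 0.911 in limma. Of 11 genes of RNA polymerase I, which transcribes ribosomal RNA, 5 were higher and 6 lower in endothelial cells, and 4 and 6 of the 10 tested in microglia. Polr1a, its largest subunit, differed by -0.39 in endothelial cells, and by 0.54 for knockout minus WT with an adjusted p of 0.371 in limma. Of 24 genes of mTORC1 and TOP control 9 were higher and 15 lower in endothelial cells, and 12 and 10 of the 22 tested in microglia. Of the 11 ribosome quality control genes in the table, 3 were higher and 8 lower in endothelial cells, and 7 and 4 in microglia. Eif2ak4, the kinase Gcn2, differed in endothelial cells by -0.42 for WT minus PBS and by 0.41 for knockout minus WT, with adjusted p of 0.285 and 0.301 in limma.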

How the data were processed

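RNA sequencing was run on sorted endothelial cells and microglia. Per the submitters' processing notes, the tools were DESeq2 1.18.1, Salmon 0.10.0, Trimmomatic 0.38 and FastQC 0.11.7 and the build GRCm38.p6, with roles not given. The authors deposited log2 variance-stabilised values for 20555 genes per cell type. The authors also deposited lists of differing genes with mean normalised counts (signal), log2 fold changes, standard errors and test statistics (scores) and p-values. Normalised counts were recovered from the log2 values: endothelial by the closed inverse (largest error 7.27e-11% against the authors' means), microglial by a curve through 238 deposited means (largest error 0.506% in held-out genes, not anchored below 54.3). Values at the floor (13.28 and 9.89) were read as 0. Read depth before normalisation is not known.

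Contrasts were fitted with limma 3.58.1 (R 4.3.3), trend on, on the deposited log2 values of all libraries of a cell type, for genes with a mean of at least 50, Benjamini-Hochberg over all of these. Rule for named genes: members past 0.05, otherwise those of smallest p per direction, the 6 highest and lowest per coding length in PBS, stalk and 5S genes, and genes of smallest p in other lists. Members and lists were chosen with earlier results of these data known. Results for some genes are not reported here. Symbols matched 20537 identifiers. Copies were found with blastn 2.17.0 on GENCODE M21. Alternatives covered filter, counts with pseudocounts of 1, 10 and 50, scaling, trend, array weights, the letter block, the groups in the fit and libraries left out.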

Additional observations from a re-analysis of the deposited data

Results flagged for a closer look

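7 members leaned in opposite directions in the 2 cell types for WT exosomes minus PBS: in endothelial cells both WT libraries lay above all 3 PBS libraries, and in microglia all 3 WT libraries lay below both PBS libraries. With 1 more that is not named, 8 of 79 members (10.1%) did so, and 146 of the 8949 genes tested in both (1.63%). The opposite pattern was found in 0 members and 160 genes (1.79%). The difference between the cell types was not tested, and the tables were normalised separately. On the deposited log2 scales the endothelial and microglial differences were 0.1828 and -0.3238 for Rpl7 and 0.1326 and -0.2072 for Rpl36a. They were 0.0527 and -0.1929 for Rps21, 0.1341 and -0.1618 for Rpl39, and 0.1319 and -0.1448 for Rpl23a. For Rpl32 they were 0.1032 and -0.1194, and for Rps26 0.1334 and -0.1169. None of these passed the threshold in limma in either cell type.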

How the results depend on the processing

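No member passed the threshold in any of 188 fits under 25 alternatives, and the lowest adjusted p of a member was 0.0843 in limma. The median difference of the members moved by less than the SD of library medians in 176 of 188. That SD was 0.034 in endothelial cells and 0.080 in microglia, where the largest member median was -0.081. A microglial median could therefore change sign and count as unmoved. KO1 minus KO2 did so, from 0.0129 to -0.0637 without KO2 A. The count of 176 thus says little about how steady the microglial medians are. The exceptions were endothelial and came from the change of scale: with log2 of counts plus 1, 10 and 50 and with equal totals, WT minus PBS gave 0.2111, 0.2109, 0.2102 and 0.2278, knockout minus WT -0.1068, -0.1067, -0.1064 and -0.1029, and knockout minus PBS 0.1471, 0.1468, 0.1452 and 0.1673. Counts over all genes, 1 each for endothelial WT minus PBS and knockout minus WT, moved more: 9 and 6 passed without a filter, 8 and 17 with counts plus 1, 3 and 10 with counts plus 10, 2 and 2 with counts plus 50 and 3 and 8 with equal totals. For endothelial knockout minus PBS, 17 passed without a filter. Leaving out single libraries gave endothelial medians of 0.0465 to 0.0797, -0.0451 to -0.0160, 0.0285 to 0.0669 and, for KO1 minus KO2, -0.0344 to 0.0155. In microglia they were -0.128 to -0.0490, -0.00476 to 0.0655, -0.0923 to -0.0231 and -0.0637 to 0.0621. Without the 10 most abundant genes the mean member shares were 1.42% in endothelial PBS, 1.6877% in WT, 1.5601% in KO1 and 1.6072% in KO2, and 1.8168%, 1.682%, 1.7205% and 1.7451% in microglial PBS, WT, KO1 and KO2. Of 371 values for single members 1 reversed: Rpl26, knockout minus PBS in microglia, was -0.0243 without PBS A and 1.3376 without PBS B.

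The labels do not say that a letter marks a shared source, and not every same-letter pair had deviations correlated over 0.1, the criterion used, so letters were not taken as pairs. Correlations were 0.0224 to 0.2295 in endothelial cells (7 of 12 pairs over 0.1) and 0.0086 to 0.3743 in microglia (7 of 15), all positive, while pairs of unlike letter reached at most 0.1147 and 0.0744 and 9 of 10 and 10 of 11 libraries correlated best with their own letter, a hint from the data. With the letter as replicate block, member medians were 0.0592 and -0.1324 for WT minus PBS in endothelial cells and microglia. Under that block 25 microglial genes passed for WT minus PBS and 16 for knockout minus PBS, none of them members.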
